A study of Homo sapiens with 66 samples.

Results

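The CDC2-like kinases CLK1, CLK2, CLK3 and CLK4 were followed as 4 genes matched by symbol to the gene identifiers of the count files, 4 of the 17812 genes tested, across 66 RNA-seq libraries of human DLD-1 colorectal cancer cells. Both copies of TPR, NUP153, NUP50, RANGAP1, NXF1 or GANP carried the AID degron, through which added auxin sends the tagged protein to degradation, and each tagged line, a clone checked by PCR genotyping, also expressed the ubiquitin ligase subunit TIR1 from the RCC1 locus. By the labels, AID was joined to the fluorescent protein NeonGreen on TPR, NUP153, NUP50 and RANGAP1, to a FLAG tag on NXF1 and to an HA tag on GANP. AID-TPR, NUP153-AID, RANGAP1-AID and AID-NXF1 cells were untreated or held 2 h in 1 mM auxin, NUP50-AID and AID-GANP cells 3 h, with a later time of 8 h for AID-TPR, NUP153-AID and RANGAP1-AID and of 9 h for NUP50-AID. Parental DLD-1 cells without a tag were labelled untreated or 2 h of auxin, and AID-TPR cells were also treated for 2 h with Actinomycin D (ActD), which stops transcription, alone or with auxin. Each of the 22 groups held 3 libraries. AID-TPR came in 2 sets, replicates 1 to 3 and replicates labelled old (old1 to old3), and only the old set had 8 h of auxin.

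CLK kinases phosphorylate the serine- and arginine-rich (SR) proteins that help choose splice sites, and so tune alternative splicing. Their own transcripts are known for detained introns, introns that stay in otherwise finished, polyadenylated RNA and keep it in the nucleus until they are spliced after transcription; in CLK1 the introns on either side of exon 4 are the known case. TPR, NUP153 and NUP50 are proteins of the basket on the nuclear side of the nuclear pore, RANGAP1 drives the Ran cycle at the cytoplasmic side, and NXF1 and GANP take part in mRNA export.

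Exon 4 of each gene is shown because the introns beside it are the known detained ones in CLK1, with the exon of the same number in the other members for comparison. It was read 5′ to 3′ on the strand of the gene from the GRCh38 genome, with exon 4 in capitals, the last 20 bases of intron 3 before it and the first 10 bases of intron 4 after it. The exons lie at chr2:200860125-200860215 (CLK1, minus strand), chr1:155268708-155268795 (CLK2, minus), chr15:74622120-74622216 (CLK3, plus) and chr5:178617344-178617434 (CLK4, minus).
CLK1: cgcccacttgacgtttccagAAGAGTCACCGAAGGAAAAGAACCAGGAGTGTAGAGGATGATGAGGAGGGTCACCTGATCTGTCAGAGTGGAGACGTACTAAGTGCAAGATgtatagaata
CLK2: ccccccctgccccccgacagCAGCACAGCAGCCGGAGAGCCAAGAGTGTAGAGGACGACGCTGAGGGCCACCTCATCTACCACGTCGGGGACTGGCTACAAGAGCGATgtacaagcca
CLK3: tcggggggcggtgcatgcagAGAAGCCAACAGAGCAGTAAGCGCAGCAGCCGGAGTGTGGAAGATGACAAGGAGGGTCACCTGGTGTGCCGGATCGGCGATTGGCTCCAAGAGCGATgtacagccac
CLK4: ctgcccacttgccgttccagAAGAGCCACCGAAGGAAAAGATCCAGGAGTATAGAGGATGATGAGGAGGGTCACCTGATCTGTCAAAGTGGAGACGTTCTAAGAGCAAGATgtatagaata

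The exon was 91 bases long in CLK1 and CLK4, 88 in CLK2 and 97 in CLK3, none of them a multiple of 3. CLK1 and CLK4 were identical at 85 of 91 aligned bases (93.4%), and the other pairs at between 59.8% and 63.9%. The longest run shared by the main (MANE) transcripts was 34 bases, between CLK1 and CLK4, and at most 17 bases in the other pairs.

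Each main transcript had 13 exons. Intron 3 was 1022 bases in CLK1, 692 in CLK2, 1894 in CLK3 and 1121 in CLK4, and intron 4 was 378, 348, 277 and 395 bases in the same order. In the GENCODE 44 annotation both introns lay within an exon of a retained-intron transcript in CLK1, CLK3 and CLK4, and CLK2 had no transcript of that class. In CLK2 both introns still lay wholly (100.0%) within exons of transcripts of other classes. The paper's methods name an earlier annotation for the counting, so the exons counted may differ from these. Of the exon bases of CLK1, 48.0% belonged only to retained-intron transcripts, against 38.3% in CLK4 and 18.7% in CLK3. A count per gene can therefore include reads on the detained introns, and the files do not separate these from spliced reads, so every value here is the total of both.

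Reads counted per library ranged from 18943661 to 55411411 (median 32285399). Those on a CLK gene ranged from 586 to 3990 for CLK1, 216 to 1717 for CLK2, 829 to 5612 for CLK3 and 210 to 913 for CLK4. Of 9 epithelial and colon markers, 8 were above 1 CPM (reads on the gene relative to all counted reads of the library) on average in every group, CDX1 being the exception, and of 8 markers of blood cells, fibroblasts and vessels 1 or 2 were. Of these 8, VWF ranged from 0.888 to 12.6 CPM over the libraries and COL1A1 from 0 to 1.75 CPM, and their summed level lay between 1.58 and 13.2 CPM. The RNA of the tagged gene itself changed by -0.06 to 0.29 on the log2 scale after auxin over the 11 comparisons, with none called, which says nothing of the protein.

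The labels of some libraries were in doubt. CYP1A1, a target of the aryl hydrocarbon receptor (AHR), had log2 fold changes after auxin of 1.14 to 6.68 over the 11 tagged comparisons, called in 9 of them, but of -3.84 in the DLD-1 libraries labelled auxin against those labelled untreated (adjusted p = 8.2e-07, edgeR). A count table published with the study holds the same counts under the opposite DLD-1 names. The DLD-1 comparison is given here by its labels in the count files, and its direction is in doubt. Results that use it are given with the DLD-1 groups exchanged as well, an alternative chosen after seeing the data. In the old AID-TPR set, the 2 h library old2 correlated with the 8 h libraries old1 and old3 at Pearson r = 0.85 and 0.93 and with the 2 h libraries old1 and old3 at r = 0.59 and 0.52, over 12095 genes of log2 CPM centred on the untreated mean. The 8 h library old2 correlated with the 2 h libraries old1 and old3 at r = 0.54 and 0.75, and with the 8 h libraries old1 and old3 at r = 0.45 and 0.52. Without old2 the profiles did not split by time either. The 2 h libraries old1 and old3 correlated at r = 0.44, and 2 h old1 with 8 h old1 and old3 at r = 0.73 and 0.60. Tests of CLK genes that use the 2 old2 auxin libraries are given with and without them where they are given singly, while those of other genes include both.

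In untreated cells CLK3 and CLK1 gave the most reads of the family. By mean CPM over the 8 untreated groups, CLK3 lay between 52.1 (NUP153-AID) and 101 (DLD-1), CLK1 between 48.5 and 68.0, and CLK4 between 14.6 and 17.4. The untreated mean of CLK2 was 24.0 to 32.3 CPM in the DLD-1, AID-TPR, AID-NXF1 and AID-GANP libraries. It was 11.5 to 15.5 CPM in the old AID-TPR, NUP153-AID, NUP50-AID and RANGAP1-AID libraries. The former had no reads on mitochondrial genes. Of the latter, RANGAP1-AID had reads on mitochondrial genes and on the gene RMRP, and the others had none on RMRP. From these zeros alone 3 ways of counting were inferred, called counting classes here, since the labels name none. The cause of the gap in CLK2 was not tested. Between genes, the order depended on the length used. Per kilobase of the main transcript, untreated AID-TPR cells had 38.1 ± 4.89 CPM for CLK3, 31.9 ± 0.963 for CLK1, 11.2 ± 0.707 for CLK2 and 6.42 ± 0.765 for CLK4 (SD, n = 3), and per kilobase of all annotated exons 11.5 for CLK1, 6.57 for CLK2, 3.58 for CLK3 and 2.03 for CLK4. CLK4 was the lowest on both scales, and the first place passed from CLK3 to CLK1.

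**Figure D1:**
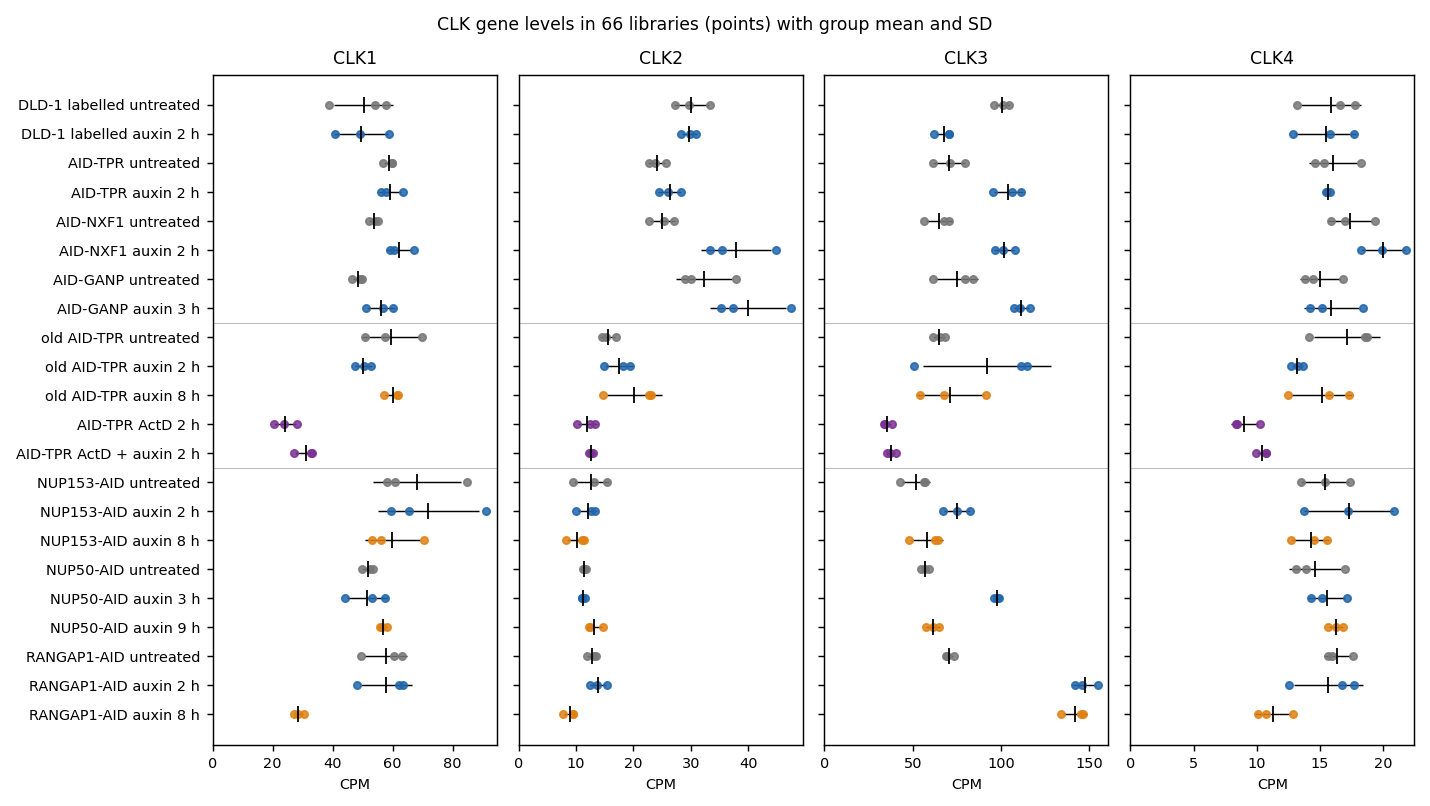
CPM with TMM factors (x axis, from 0) of each CLK gene in the 22 groups, with 1 point per library, a tick for the group mean and a bar for its SD (n = 3); grey is untreated, blue 2 or 3 h of auxin, orange 8 or 9 h, purple ActD. CLK3 reaches 141.8 to 154.8 CPM in the RANGAP1-AID libraries at 2 h, CLK1 and CLK4 are lowest under ActD and at 8 h of RANGAP1-AID, and the untreated means of CLK2 are 24.0 to 32.3 CPM in the upper 8 groups and 11.5 to 15.5 in the lower ones.

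CLK3 rose after auxin in most tagged lines. It was called higher in 6 of the 11 comparisons of a tagged line with its own untreated libraries, and its log2 fold change was above 0 in all 11, with a median of 0.56. A gene counted as called when edgeR's quasi-likelihood test gave a Benjamini-Hochberg adjusted p under 0.05 and the fold was 1.3 or more, or 0.7 or less. CLK1 and CLK4 were called in 1 of the 11 comparisons each and CLK2 in 2, once in each direction. CLK3 was also called in DLD-1 cells, there lower by label (-0.57), a direction that is in doubt. RNA was pooled from whole cultures, so a change in every cell and a larger one in some cells cannot be told apart.

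The largest change of CLK3 followed auxin in RANGAP1-AID cells. The untreated libraries had 73.2, 68.9 and 69.1 CPM, those at 2 h 141.8, 154.8 and 145.7, and those at 8 h 145.1, 146.3 and 134.0. All 6 auxin libraries lay above the 3 untreated ones. The log2 fold change was 1.06 ± 0.08 (SE) at 2 h, adjusted p = 0.00019, and 1.01 ± 0.07 at 8 h, adjusted p = 1e-05. At 2 h CLK3 was the 1 CLK gene called, where 0.589% of all genes were called, and at 8 h all 4 CLK genes were called, where 14.9% were.

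In NUP50-AID cells CLK3 was called at 3 h and not at 9 h. CLK3 stood at 59.4, 57.1 and 54.8 CPM untreated, at 98.0, 98.8 and 96.2 after 3 h and at 65.1, 57.6 and 61.7 after 9 h. The 3 h libraries lay apart from both other groups, which overlapped each other. The log2 fold change was 0.79 ± 0.07 at 3 h (adjusted p = 0.00058, edgeR, 0.219% of genes called) and 0.10 ± 0.07 at 9 h (adjusted p = 0.55, 0.371% called). Tested directly, CLK3 fell by 0.68 on the log2 scale from 3 h to 9 h (SE 0.07, adjusted p = 0.0014), in a comparison that called 0.258% of genes.

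In AID-NXF1 and AID-GANP cells, which lose factors of mRNA export, CLK3 also rose. It went from 67.6, 70.4 and 56.4 CPM untreated to 96.7, 101.0 and 107.7 in AID-NXF1 cells, a log2 fold change of 0.63 ± 0.08 (adjusted p = 0.00017, edgeR, 8.16% of genes called). In AID-GANP cells it went from 84.0, 79.5 and 61.2 CPM to 110.9, 116.2 and 107.6, a log2 fold change of 0.56 ± 0.11 (adjusted p = 0.0029, 15.5% called). In neither line did the auxin and untreated libraries overlap. The 2 effects differed by 0.03 ± 0.14 on the log2 scale (adjusted p = 0.96), and none of the 4 CLK genes differed between the lines at an unadjusted p under 0.05, where 2.62% of all genes differed at an adjusted p under 0.05.

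In AID-TPR cells CLK3 had 79.4, 61.3 and 71.1 CPM untreated and 106.3, 95.2 and 111.1 after 2 h of auxin, with no overlap. The log2 fold change was 0.56 ± 0.10 (adjusted p = 0.039, edgeR), in a comparison that called 0.511% of genes. The call sat near the threshold: with 1 library left out it was lost in 5 of 6 fits, without auxin replicate 1 (adjusted p = 0.11) or 3 (0.16), or without untreated replicate 1 (0.056), 2 (0.071) or 3 (0.17), while the log2 fold change stayed between 0.46 and 0.65.

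In the old AID-TPR libraries CLK3 had 65.6, 68.1 and 61.4 CPM untreated (old1 to old3), 114.7, 50.5 and 111.3 after 2 h and 67.8, 91.6 and 54.4 after 8 h. The 2 h library old2 lay below every untreated library, and the 8 h library old2 above the other 8 h ones. The log2 fold change was 0.50 ± 0.26 at 2 h (adjusted p = 0.47, edgeR, 0.455% of genes called) and 0.81 ± 0.11 without 2 h old2 (adjusted p = 0.020). At 8 h it was 0.13 ± 0.19 (adjusted p = 0.75, 3.61% called) and -0.13 ± 0.13 without 8 h old2 (adjusted p = 0.54). Between the 2 times no gene of the 17812 was called by edgeR (0%) or by DESeq2, with 48 genes at an unadjusted p under 0.05, and CLK3 differed by -0.38 ± 0.31. Without both old2 auxin libraries, an alternative chosen after seeing the data that leaves 2 against 2, CLK3 fell by 0.93 from 2 h to 8 h (SE 0.15, adjusted p = 0.010) and 832 genes were called. CLK3's auxin effect in the 2 AID-TPR sets differed by 0.06 ± 0.32, and by -0.25 ± 0.15 without the 2 h library old2 (adjusted p = 1.0). No gene differed between the sets (0%) by edgeR at an adjusted p under 0.05, against 5 by DESeq2 and 574 at an unadjusted p under 0.05.

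NUP153-AID cells showed the same direction for CLK3 without a call in the fit of 6 libraries. The values were 56.9, 56.5 and 42.9 CPM untreated, 82.3, 75.1 and 67.4 after 2 h and 47.9, 64.5 and 62.6 after 8 h. At 2 h all 3 auxin libraries lay above the untreated ones, and at 8 h the groups overlapped. The log2 fold change at 2 h was 0.53 ± 0.11 (unadjusted p = 0.00096, adjusted p = 0.28, edgeR, 0.0393% of genes called), and it passed with the replicate number as a block (log2 fold change 0.53, adjusted p = 1.7e-08), the pairs of that comparison correlating at r = 0.54 to 0.71, and by DESeq2 (adjusted p = 0.0051). At 8 h it was 0.16 ± 0.13 (adjusted p = 0.67, 1.34% called). From 2 h to 8 h CLK3 differed by -0.38 ± 0.11 (adjusted p = 0.10), where 1.95% of genes were called.

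In the DLD-1 libraries CLK3 stood at 101.4, 96.2 and 104.8 CPM where labelled untreated and at 70.6, 70.5 and 62.3 where labelled auxin. The groups did not overlap, and the log2 fold change by label was -0.57 ± 0.06 (adjusted p = 0.0048, edgeR). It was 1 of 10 genes called there (0.0561%), all of them lower. The other members differed by -0.03 to -0.01. Without the DLD-1 auxin replicate 3 the change of CLK3 was -0.51, just short of the fold asked, and in 1 fit over 60 libraries its adjusted p was 0.67.

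Set against DLD-1 by an interaction term, which asks whether auxin acted differently in a tagged line, the result for CLK3 turned on the direction of the DLD-1 comparison. By the labels CLK3 differed in 8 of 11 comparisons at an adjusted p under 0.05 (edgeR), and with the DLD-1 groups exchanged in 1 of 11. The excess over DLD-1 by label on the log2 scale was 1.64 ± 0.10 in RANGAP1-AID at 2 h and 1.58 ± 0.09 at 8 h, 1.35 ± 0.09 in NUP50-AID at 3 h and 0.68 ± 0.09 at 9 h, 1.19 ± 0.11 in AID-NXF1, 1.14 ± 0.13 in AID-GANP, 1.12 ± 0.12 in AID-TPR and 1.10 ± 0.14 in NUP153-AID at 2 h. It did not pass in NUP153-AID at 8 h (0.72, adjusted p = 0.059) or in the old AID-TPR set at 2 h (1.08, adjusted p = 0.16) and 8 h (0.70, adjusted p = 0.056). Without the old2 library of each time the last pair was 1.37 (adjusted p = 4.2e-05) and 0.48 (adjusted p = 0.017). All 11 tests share the DLD-1 libraries, and each excess contains their change of -0.57 by label. Auxin in DLD-1 was labelled 2 h only, so the effects at 3 h, 8 h and 9 h were set against a 2 h one. Time and line cannot be told apart there. The DLD-1 libraries were in another counting class than the old AID-TPR, NUP153-AID, NUP50-AID and RANGAP1-AID libraries.

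With the DLD-1 groups exchanged, the difference from DLD-1 passed in RANGAP1-AID at 8 h alone of these 11 tests (0.44 ± 0.09, adjusted p = 0.0040, edgeR). In RANGAP1-AID at 2 h it was 0.49 ± 0.09 (adjusted p = 0.12), and in NUP50-AID it was 0.20 ± 0.09 at 3 h (adjusted p = 1.0) and -0.47 ± 0.09 at 9 h (adjusted p = 0.064). In AID-TPR, NUP153-AID at 2 h, AID-NXF1 and AID-GANP it was -0.015 ± 0.12, -0.046 ± 0.14, 0.061 ± 0.11 and 0.0025 ± 0.13. It was -0.42 ± 0.16 in NUP153-AID at 8 h, -0.07 ± 0.31 in the old AID-TPR set at 2 h and -0.44 ± 0.20 at 8 h. Without the old2 library of each time the last pair was 0.23 ± 0.11 (adjusted p = 0.61) and -0.66 ± 0.13 (adjusted p = 0.0033). The direction of the DLD-1 comparison cannot be settled from these files. The comparisons of each tagged line with its own untreated libraries do not use DLD-1. By the labels the share of all genes that differed was 0.893% and 17.6% for RANGAP1-AID at 2 h and 8 h, 0.46% and 0.314% for NUP50-AID at 3 h and 9 h, 9.71% for AID-NXF1, 20.1% for AID-GANP, 0.825% for AID-TPR, 0.354% and 0.769% for NUP153-AID at 2 h and 8 h, and 0.859% and 6.35% for the old set at 2 h and 8 h.

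**Figure D2:**
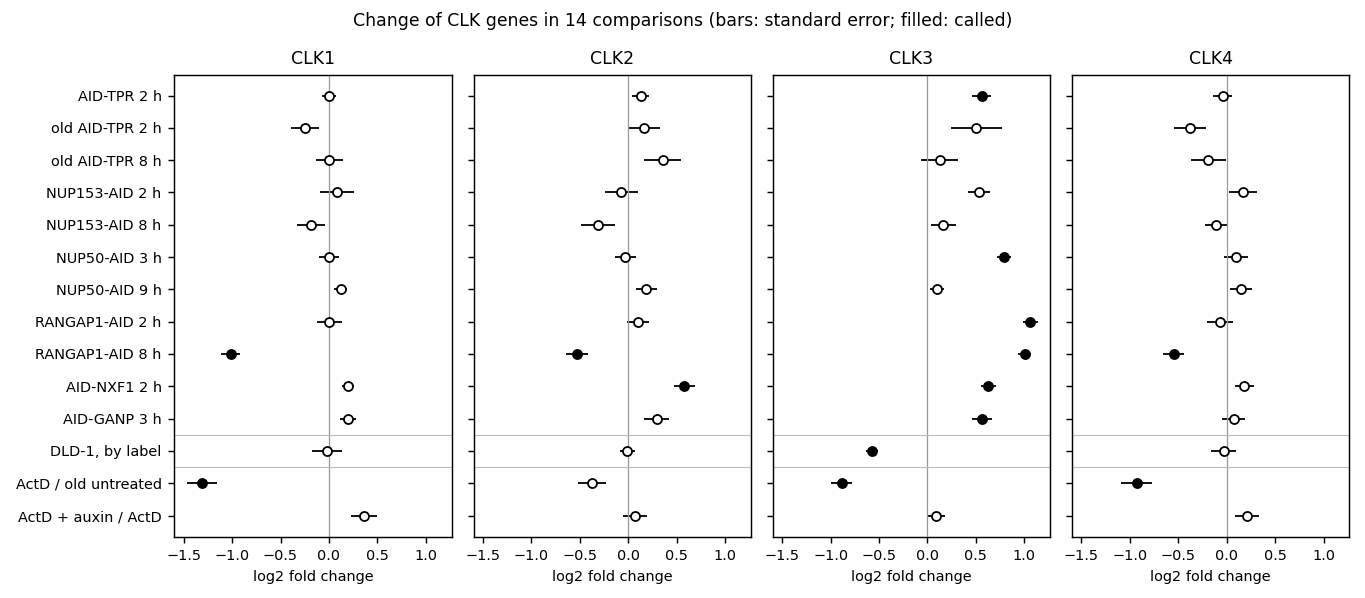
Log2 fold change (x axis) of each CLK gene in the 14 comparisons (rows: auxin against untreated of the same line, DLD-1 by label, ActD against old untreated AID-TPR, and ActD with auxin against ActD), with bars for the standard error and filled points for called genes. CLK3 lies to the right of 0 in all 11 tagged comparisons, called in 6, and to the left in DLD-1 and under ActD. CLK1, CLK2 and CLK4 are called only at 8 h of RANGAP1-AID, in AID-NXF1 for CLK2, and under ActD for CLK1 and CLK4.

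CLK3 varied with the AHR targets CYP1A1 and CYP1B1 over the libraries. Each library was centred on the untreated mean of its line and set, and the 60 libraries without ActD, which share lines, auxin groups and baselines, were compared as a description. Of 14687 genes with a mean count of at least 50, the 5 whose profile was most like that of CLK3 were CYP1B1-AS1 (Pearson r = 0.90), DENND3 (0.87), CYP1B1 (0.84), CYP1A1 (0.83) and MEGF6 (0.83). CYP1A1 and CYP1B1 encode cytochrome P450 enzymes induced through AHR. Within the sets the r of CLK3 with CYP1A1 was 0.98 in DLD-1, 0.97 in AID-TPR, 0.97 in AID-NXF1 and 0.98 in AID-GANP (6 libraries each), and 0.99 in RANGAP1-AID, 0.94 in NUP50-AID, 0.89 in NUP153-AID and 0.64 in the old AID-TPR set (9 libraries each). By rank (Spearman rho) the correlation with CYP1A1 was lowest in RANGAP1-AID, at 0.52, and 0.65 to 1 in the other sets. With TIPARP, another AHR target, the r of CLK3 over the 60 libraries was 0.70. From 2 h to 8 h in RANGAP1-AID cells TIPARP differed by -2.09 ± 0.08 on the log2 scale and CLK3 by -0.06 ± 0.07. In the old AID-TPR set at 8 h CYP1A1 rose by 5.76 ± 0.70 on the log2 scale and CLK3 differed by 0.13 ± 0.19. Under ActD CYP1A1 was called higher (1.80 ± 0.56) and CLK3 lower (-0.89 ± 0.11). With CLK1, CLK2 and CLK4 the r of CLK3 over the 60 libraries was -0.22, 0.09 and -0.09.

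CYP1A1 itself moved in many of the same libraries. In NUP50-AID cells it had 2.52, 3.70 and 16.4 CPM untreated, 389, 450 and 360 after 3 h and 21.4, 13.1 and 16.5 after 9 h. In the old AID-TPR set it had 403, 47.2 and 334 CPM after 2 h and 91.2, 276 and 42.9 after 8 h, so old2 was the lowest at 2 h and the highest at 8 h for CYP1A1 as for CLK3. Of the 5 AHR targets CYP1A1, CYP1B1, TIPARP, AHRR and NQO1, 4 were called higher in NUP50-AID at 3 h (0.219% of all genes called) and 3 in AID-TPR (0.511%), NUP153-AID at 2 h (0.0393%), RANGAP1-AID at 2 h (0.589%) and 8 h (14.9%), AID-GANP (15.5%) and the old AID-TPR set at 8 h (3.61%). In AID-NXF1 (8.16%) and the old AID-TPR set at 2 h (0.455%) 2 were called higher. In NUP50-AID at 9 h (0.371%) none was called, in NUP153-AID at 8 h (1.34%) 1 was called lower, TIPARP (-0.58 ± 0.09), and in the DLD-1 libraries labelled auxin (0.0561%) 3 were called lower. Among tagged lines against untreated, NQO1 was called only in the old AID-TPR set at 8 h (0.47 ± 0.11), and differed by -0.03 ± 0.09 in RANGAP1-AID at 2 h. AHRR was called only in NUP50-AID at 3 h (1.33 ± 0.17) and RANGAP1-AID at 8 h (1.00 ± 0.08), and differed by 0.10 ± 0.09 in AID-TPR.

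**Figure D3:**
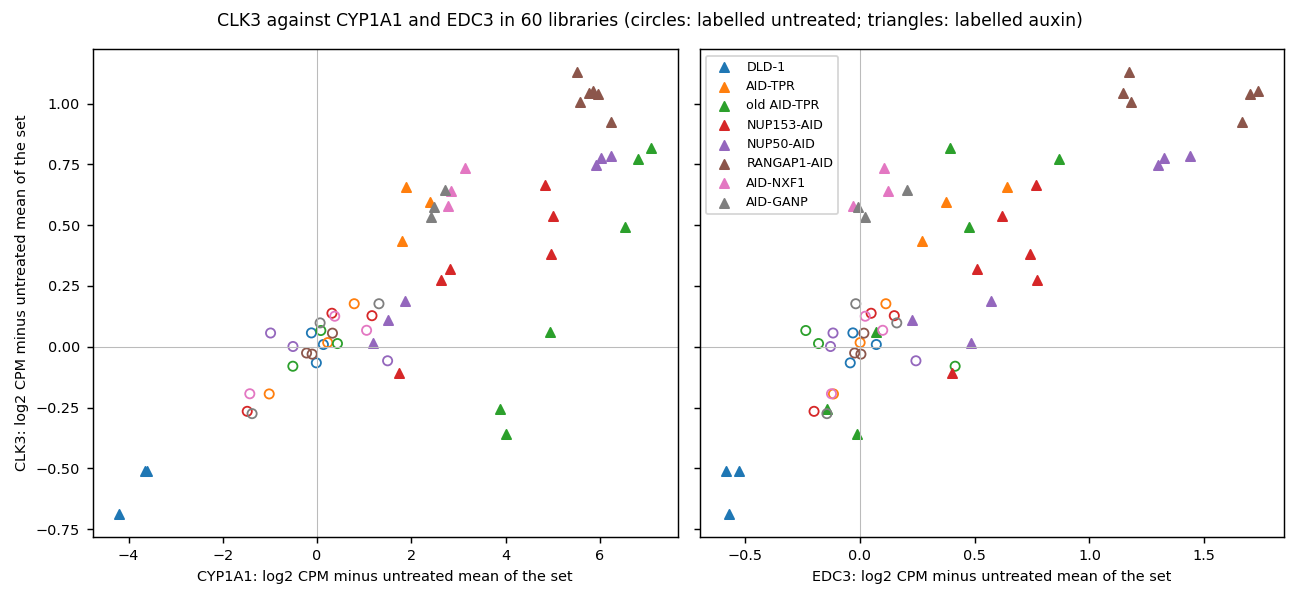
Log2 CPM of CLK3 (y axis) against CYP1A1 (left) and EDC3 (right), each minus the untreated mean of the library's line and set, for 60 libraries coloured by line, with circles for libraries labelled untreated and triangles for those labelled auxin. CLK3 rises with both genes (Pearson r = 0.83 and 0.81), and the 3 DLD-1 libraries labelled auxin lie at the lower left.

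Genes beside CLK3 on chromosome 15 changed with it in part. CLK3 (ENSG00000179335) spans chr15:74598500-74645414 on the plus strand in GENCODE 44. EDC3, a factor that helps remove the mRNA cap, spans chr15:74630558-74696292 on the minus strand, overlaps CLK3 and shares 701 exon bases with it. CYP1A1 lies 74128 bases away from CLK3. Of 8 tested genes within 150 kb, 5 were called in RANGAP1-AID at 8 h (14.9% of all genes called), 4 in RANGAP1-AID at 2 h (0.589%), NUP50-AID at 3 h (0.219%) and AID-GANP (15.5%), and 2 in AID-NXF1 (8.16%) and DLD-1 (0.0561%). In the other 6 tagged comparisons 1 of the 8 was called, where 0.0393% to 3.61% of all genes were. That gene was EDC3 in NUP153-AID at 8 h (0.57 ± 0.12), CSK in NUP50-AID at 9 h (0.41 ± 0.07) and CYP1A1 in the rest. Of these 6, CLK3 was called in AID-TPR alone. All calls of neighbours were higher, except those in DLD-1 by label and UBL7-DT in AID-GANP (-0.52 ± 0.14), which were lower. EDC3 rose by 1.37 ± 0.11 on the log2 scale in NUP50-AID at 3 h, 1.17 ± 0.07 and 1.71 ± 0.06 in RANGAP1-AID at 2 h and 8 h, and was called lower in DLD-1 by label (-0.57 ± 0.05). In AID-NXF1 and AID-GANP cells, where CLK3 rose, EDC3 differed by 0.04 ± 0.07 and 0.06 ± 0.09. CSK, a kinase that restrains SRC, rose by 0.63 ± 0.08 in NUP50-AID at 3 h and 1.01 ± 0.07 in RANGAP1-AID at 8 h. The libraries came from a stranded kit, but the strand setting of the counting was not given, so reads on the shared exon bases cannot be assigned to CLK3 or EDC3 alone; their part in the change of CLK3 was not tested.

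Beside the other members, 1 of 7 tested genes near CLK1 was called in the old AID-TPR set at 8 h (3.61% of all genes called) and none in the other 10 tagged comparisons. Near CLK2, 3 of 19 were called in AID-GANP (15.5%), 2 in AID-NXF1 (8.16%) and in RANGAP1-AID at 8 h (14.9%) and 1 in the old AID-TPR set at 8 h, and near CLK4 1 of 2 in AID-NXF1 and AID-GANP.

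**Figure D4:**
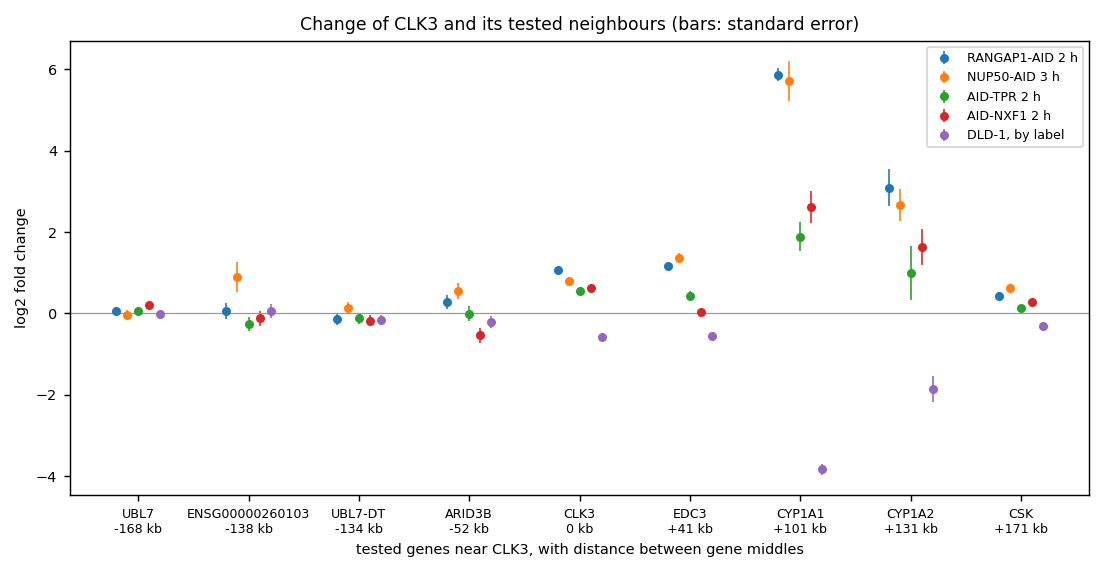
Log2 fold change (y axis, with bars for the standard error) of CLK3 and the 8 tested genes within 150 kb, ordered along the chromosome with the distance between gene middles from CLK3, in 5 comparisons. CYP1A1 and CYP1A2 have the largest values, CLK3, EDC3 and CSK smaller ones, UBL7 and UBL7-DT lie near 0, and in DLD-1 by label CLK3, EDC3, CYP1A1, CYP1A2 and CSK lie below 0.

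The promoter of CLK3 at the start of its main transcript is shown because CLK3 varied with the AHR targets CYP1A1 and CYP1B1. AHR is known to bind DNA at the letters GCGTG, which were searched on both strands (GCGTG and CACGC) in 300 bases, 250 before and 50 after the start. The sequence is from RefSeq, GRCh38.p14, chr15:74615586-74615885, plus strand, with the match in capitals.
CLK3 promoter: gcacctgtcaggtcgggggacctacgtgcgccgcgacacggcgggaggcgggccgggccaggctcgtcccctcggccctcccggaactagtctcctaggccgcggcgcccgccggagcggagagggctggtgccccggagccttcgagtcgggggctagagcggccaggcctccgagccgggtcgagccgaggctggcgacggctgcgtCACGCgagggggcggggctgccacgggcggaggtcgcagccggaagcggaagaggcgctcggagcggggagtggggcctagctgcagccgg

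The window held 1 match, which also fits the longer TNGCGTG, searched on both strands and containing the shorter motif. Of 35116 RefSeq promoters of this length 36.5% held GCGTG and 5.5% TNGCGTG. The CLK1 promoters held 3 and 2 matches of GCGTG, that of CLK4 1, that of CLK2 0 and that of CYP1A1 1, and a second CLK3 promoter at chr15:74608122-74608421 held 1. None of these other promoters, that of CYP1A1 included, held TNGCGTG. The promoter of EDC3, the neighbour of CLK3, held 3 matches of GCGTG and 1 of TNGCGTG, so the longer motif was not particular to CLK3. Sequence outside these promoter windows was not searched, for CYP1A1 or any other gene. A match is a description of letters and not a measured binding site.

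CLK1, the member best known for its detained introns, was called in 1 of the tagged comparisons. In RANGAP1-AID cells it stood at 63.1, 60.4 and 49.6 CPM untreated, at 48.2, 62.1 and 63.6 after 2 h and at 28.4, 30.3 and 27.2 after 8 h. The 8 h libraries lay below all others. CLK1 fell by 1.02 on the log2 scale at 8 h (SE 0.10, adjusted p = 7.9e-05, edgeR) and differed by 0.002 ± 0.13 at 2 h. The fall from 2 h to 8 h was 1.02 (SE 0.11, adjusted p = 0.00029), where 8.8% of all genes were called.

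CLK4 and CLK2 went the same way there. CLK4 had 15.6, 17.6 and 16.0 CPM untreated and 10.8, 12.9 and 10.1 at 8 h, and fell by 0.55 (SE 0.11, adjusted p = 0.0045). CLK2 had 13.1, 11.8 and 13.5 CPM untreated and 9.55, 9.52 and 7.74 at 8 h, and fell by 0.53 (SE 0.11, adjusted p = 0.0059). Neither overlapped between the groups. Both calls sat near the fold bound of -0.52: without 8 h replicate 3 the log2 fold changes were -0.47 and -0.43, which left 2 of the 4 genes called. From 2 h to 8 h CLK2 fell by 0.64 (SE 0.12, adjusted p = 0.0062), CLK4 differed by -0.48 ± 0.14, short of the fold asked (adjusted p = 0.043), and CLK3 by -0.06 ± 0.07. The 8 h effects on CLK1 and CLK2 also differed from the 2 h effects in DLD-1, by -0.99 ± 0.20 and -0.52 ± 0.14 (adjusted p = 0.0031 and 0.016, edgeR). That on CLK4 differed by -0.52 ± 0.18 (adjusted p = 0.065), which passed with the replicate block (adjusted p = 9.7e-05). DLD-1 had no 8 h libraries. With the DLD-1 groups exchanged the values were -1.03, -0.54 and -0.58 (adjusted p = 0.0028, 0.014 and 0.042).

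At the same time and in the same cells, where 14.9% of all genes were called, 3 of 9 other genes listed for detained introns were called, all lower: OGT (-0.86 ± 0.07), RBM39 (-0.70 ± 0.08) and MAT2A (-0.63 ± 0.07), with a median of -0.48 over the 9 against -0.01 over all genes. OGT adds sugar to nuclear proteins, RBM39 is a splicing factor and MAT2A makes the methyl donor of the cell. Of 13 tested genes of SR proteins and TRA2 factors, the kind of protein CLK kinases phosphorylate, 4 were called lower: SRSF2 (-0.72), TRA2A (-0.65), SRSF7 (-0.61) and SRSF3 (-0.54). Of 12 related kinases of the SRPK, DYRK, HIPK and PRPF4B families 2 were called, a share near that of all genes: SRPK3 was lower (-0.98) and DYRK2 higher (0.54).

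In the other tagged lines CLK1 and CLK4 stayed within their spread or moved by little. CLK1 in AID-NXF1 cells went from 52.0, 55.1 and 54.1 CPM to 59.1, 60.4 and 67.2, with no overlap and a log2 difference of 0.19 ± 0.06 (adjusted p = 0.046, edgeR), short of the fold asked. In AID-GANP cells it had 49.2, 49.96 and 46.5 CPM untreated and 60.3, 56.8 and 51.3 after auxin, a difference of 0.20 ± 0.08 (adjusted p = 0.087). Elsewhere its log2 differences lay between -0.25 and 0.12. Those of CLK4 outside RANGAP1-AID at 8 h lay between -0.38 and 0.18, the lowest in the old AID-TPR set at 2 h (unadjusted p = 0.044, adjusted p = 0.40), where the auxin libraries lay below the untreated ones. Without the 2 h library old2 that value was -0.37 (adjusted p = 0.61).

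CLK2 rose in AID-NXF1 cells. It had 22.8, 27.0 and 25.4 CPM untreated and 35.5, 33.4 and 44.9 after 2 h of auxin, with no overlap, a log2 fold change of 0.58 ± 0.11 (adjusted p = 0.0028, edgeR) and an excess over DLD-1 of 0.58 ± 0.15 (adjusted p = 0.020), or 0.57 with the DLD-1 groups exchanged (adjusted p = 0.021). In AID-GANP cells it had 30.1, 37.8 and 28.9 CPM untreated and 35.2, 47.5 and 37.3 after auxin. These overlapped, and the difference of 0.30 ± 0.13 did not pass (adjusted p = 0.11) unless untreated replicate 2 was left out (0.43, adjusted p = 0.041). The AID-NXF1 and AID-GANP effects on CLK2 differed by 0.24 ± 0.19 (adjusted p = 0.61). In the old AID-TPR set at 8 h the difference of CLK2 was 0.36 ± 0.19, and 0.52 (adjusted p = 0.023) without the 8 h library old2.

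ActD asked how the RNAs fared once transcription was stopped, as a change relative to the other RNAs left in the cell. The ActD libraries were set against the old untreated AID-TPR libraries, which were in the same counting class. The ActD libraries are labelled replicates 1 to 3 and not old, and the untreated AID-TPR replicates 1 to 3 were in another counting class. An effect of ActD and a difference between the label sets therefore cannot be told apart. CLK1 fell most: 57.6, 69.8 and 50.7 CPM in the old untreated AID-TPR libraries and 28.0, 23.7 and 20.5 after 2 h of ActD, a fall of 1.31 on the log2 scale (SE 0.15, adjusted p = 0.00047, edgeR). CLK4 went from 18.7, 18.6 and 14.1 CPM to 10.3, 8.48 and 8.36 and fell by 0.93 (SE 0.16, adjusted p = 0.0029). CLK3 went from 65.6, 68.1 and 61.4 CPM to 34.1, 33.5 and 38.2 and fell by 0.89 (SE 0.11, adjusted p = 0.00055). None of the 3 overlapped.

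CLK2 had 15.2, 17.0 and 14.5 CPM untreated and 12.5, 10.2 and 13.3 under ActD, without overlap, and its difference of -0.37 ± 0.15 was not called (adjusted p = 0.089). The 3 calls stand beside 21.1% of all genes called. Ranked from the lowest, the log2 fold change of CLK1 was number 999 of 17812, that of CLK4 1802, of CLK3 1938 and of CLK2 4464. For scale, MYC, the lowest of 10 listed short-lived mRNAs, fell by 2.83 (SE 0.14). Of the 10, 5 were called lower with a list median of -0.72, while FOS (0.67 ± 0.34) and JUN (0.93 ± 0.38) lay above 0 without a call. Of 8 long-lived mRNAs 4 were called higher, with a list median of 0.38. Of the 13 SR genes 4 were called higher and none lower, and of the 9 other genes with detained introns none was called, with a median of 0.12.

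Under ActD, auxin changed no CLK gene by the test. No gene of the 17812 was called in that comparison (0%) by edgeR or DESeq2, and 78 had an unadjusted p under 0.05, CLK1 among them. CLK1 had 28.0, 23.7 and 20.5 CPM with ActD and 32.7, 33.2 and 27.1 with ActD and auxin, which overlapped, a difference of 0.36 ± 0.14 (unadjusted p = 0.030, adjusted p = 1.0). CLK3, the member that rose with auxin elsewhere, had 34.1, 33.5 and 38.2 CPM and 35.1, 37.2 and 40.4, a difference of 0.09 ± 0.09, and CYP1A1 had 3.81, 4.20 and 17.9 CPM and 5.51, 6.40 and 18.2. The auxin effect without ActD was taken from the old set at 2 h, so ActD and label set cannot be told apart in the next test. The auxin effect with and without ActD differed at an adjusted p under 0.05 in 4 genes (0.0225%), with no CLK gene among them. For CLK3 it differed by -0.41 ± 0.32, and by -0.71 ± 0.13 without the 2 h library old2 (adjusted p = 0.087). For CLK1 and CLK4 it differed by 0.61 ± 0.21 and 0.59 ± 0.20 (unadjusted p = 0.010 and 0.012, adjusted p = 0.51 and 0.54), and without the 2 h library old2 by 0.64 and 0.59 (adjusted p = 0.57 and 0.62). DESeq2 called 107 genes there and no CLK gene.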

How the data were processed

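After removal of ribosomal RNA the authors sequenced total RNA, mapped the reads to GRCh38 and deposited raw counts per Ensembl gene that were not normalized; the submitters' processing notes name STAR 2.6.1c and featureCounts 1.5.2. Of 58051 identifiers 56948 matched GENCODE 44. The libraries fell into 3 counting classes: no reads on mitochondrial genes (24 libraries), none on RMRP (33), or reads on both (9). That these classes were ways of counting was inferred from the zeros and is not in the labels. Each fit therefore held only the libraries it compares, 6 or, for interaction terms, 12. The 6 libraries of a comparison shared a class. The 12 of an interaction term did not where DLD-1 was set against old AID-TPR, NUP153-AID, NUP50-AID or RANGAP1-AID. The same held for AID-TPR against the old set. The 17812 genes with a CPM above 1 in more than 5% of the libraries other than ActD (60) were tested by edgeR 4.0.16's quasi-likelihood test with TMM scaling and Benjamini-Hochberg adjustment over all of them, checked on simulated counts. A call asked for an adjusted p under 0.05 together with a fold reaching 1.3 upward or 0.7 downward, an interaction only for the first. Standard errors are the log2 fold change over the square root of F. The 3 libraries of a group are independent cultures by the study's methods.

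The named genes were the 4 CLK genes, tested genes within 150 kb, the 5 most similar profiles, and lists of related kinases, SR proteins, genes with detained introns, AHR targets, short- and long-lived mRNAs and markers. Members and lists were chosen with earlier results of these data known. Replicate numbers paired the libraries (every residual correlation over 0.1) in 9 of 17 comparisons. Alternatives were DESeq2 1.42.0, RLE, library sizes alone, filterByExpr, no filter, a CPM and FPKM filter, a replicate block, one fit over all libraries, any fold, no mitochondrial genes and each library left out, and, chosen after seeing the data, the old set without both old2 auxin libraries and the DLD-1 groups exchanged.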

Additional observations from a re-analysis of the deposited data

Results flagged for a closer look

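These differences were marked because the effect of auxin on a CLK gene in a tagged line differed from that in DLD-1 by the interaction term of edgeR's quasi-likelihood test, adjusted over all genes. The DLD-1 effect was that of 2 h throughout. For CLK3 the excess on the log2 scale was 1.12 in AID-TPR at 2 h, 1.10 in NUP153-AID at 2 h, 1.35 in NUP50-AID at 3 h and 0.68 at 9 h, 1.64 in RANGAP1-AID at 2 h and 1.58 at 8 h, 1.19 in AID-NXF1 and 1.14 in AID-GANP. For CLK1 it was -0.99 and for CLK2 -0.52 in RANGAP1-AID at 8 h, and for CLK2 0.58 in AID-NXF1. The 8 values of CLK3 all contain the DLD-1 change of -0.57, in libraries whose CYP1A1 level goes against their labels, and with the DLD-1 groups exchanged 1 of the 8 passed, RANGAP1-AID at 8 h (0.44), the others lying between -0.47 and 0.49. CLK1 and CLK2 differed by -0.02 and -0.01 between the DLD-1 groups.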

How the results depend on the processing

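The number of CLK genes called was unchanged in all 32 comparisons with RLE, with the CPM and FPKM filter and without mitochondrial genes, and of the alternatives only the exchange of the DLD-1 groups turned the direction of a called change. In AID-TPR at 2 h it was 0 in place of 1 with library sizes alone (CLK3 adjusted p = 0.063) and in one fit over all libraries (0.067), and in DLD-1 it was 0 in place of 1 in the latter. It was 1 in place of 0 in the old AID-TPR set at 2 h in one fit, and in NUP153-AID at 2 h with DESeq2, no filter or the replicate block. Against DLD-1 it was 1 in place of 0 for old AID-TPR at 2 h (DESeq2, no filter), old AID-TPR at 8 h (DESeq2, no filter, replicate block) and NUP153-AID at 8 h (DESeq2, no filter, filterByExpr), and 3 in place of 1 for AID-GANP with the block, CLK1 and CLK2 being added. At any fold it was 3 in place of 2 in AID-NXF1 and from 2 h to 8 h in RANGAP1-AID. Counted by gene, 5 calls were added with DESeq2, 5 added and 1 lost with no filter, and 1 added and 1 lost with library sizes alone. Not all of these are named here. With the DLD-1 groups exchanged, chosen after seeing the data, the count against DLD-1 was 0 in place of 1 for AID-TPR, NUP153-AID at 2 h, NUP50-AID at 3 h and 9 h, RANGAP1-AID at 2 h and AID-GANP, and 1 in place of 2 for AID-NXF1; CLK3 turned to -0.015 in AID-TPR, -0.046 in NUP153-AID at 2 h and -0.47 in NUP50-AID at 9 h, and to 0.57 in DLD-1 itself. Late against early auxin in the old set gave 1 in place of 0 without both old2 auxin libraries. With 1 library left out the count ran from 0 to 1 in AID-TPR, old AID-TPR at 2 h and at 8 h, and DLD-1, from 2 to 4 in RANGAP1-AID at 8 h, from 1 to 2 in AID-GANP, from 2 to 3 from 2 h to 8 h in RANGAP1-AID, and against DLD-1 from 0 to 1 (old AID-TPR at 2 h, NUP153-AID at 8 h), from 0 to 2 (old AID-TPR at 8 h) and from 3 to 4 (RANGAP1-AID at 8 h). The block changed no call of the 4 genes beyond these, CLK4 in RANGAP1-AID at 8 h against DLD-1 and CLK1 in AID-NXF1 against DLD-1 (0.20, adjusted p = 0.035). Pairs correlated between r = -0.55 and 0.91, and where a pair fell below 0.1 (old AID-TPR, NUP50-AID against untreated, DLD-1, NUP153-AID at 8 h) the numbers are shared without a shown pairing. The causes were not tested. Gene counts do not resolve introns, and with 3 libraries a group changes well under the fold asked could be missed.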

Other observations

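CLK1 and CLK4, which share the most sequence, also had the most similar profiles. Over the 60 libraries without ActD, each centred on the untreated mean of its line and set, CLK4 was the gene most like CLK1 among 14687 and CLK1 the gene most like CLK4 (Pearson r = 0.81), as a description over libraries that share lines and baselines. The r lay between 0.42 and 0.99 within 7 of the 8 sets and was -0.47 in AID-TPR. After CLK4, the genes most like CLK1 were LUC7L (0.77), a splicing factor, RNVU1-14 (0.76), SNORD14C (0.76) and H2BC11 (0.75). For CLK4 they were KHDC4 (0.74), HOXB4 (0.72) and 2 genes without a symbol. For CLK2 they were YJU2B (0.80), SLCO4A1-AS2 (0.78), TMEM107 (0.76), ACP4 (0.75) and 1 gene without a symbol (0.82). In AID-GANP cells, where 15.5% of all genes were called, 3 of the 9 other genes listed for detained introns were called, all lower: PNISR (-0.87 ± 0.07), LUC7L3 (-0.80 ± 0.10) and MAT2A (-0.63 ± 0.12). None of CLK1, CLK2 and CLK4 was called there.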
